A study of Mus musculus with 2 samples.

Results

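The TEAD-high cells are 415 of 1941 single cells of embryonic mouse retina, picked because a larger share of their open chromatin lay in regions that hold TEAD motifs. The retinas were wild type (WT), of stage E14.5, and 2 replicate libraries of dissociated whole retina were profiled on the 10x Genomics droplet platform for accessible chromatin, in which a transposase cuts open DNA. No other genotype, age or treatment enters here. Nothing in the labels says whether the replicates were separate animals or litters, so every SD below (n = 2 libraries) may be technical. Each library is a table of whole-number counts of 579 motifs in each cell barcode. A count adds up the transposase cuts in all accessible regions that hold a motif, so it reads the regions and not the bound protein, and 1 cut counts for every motif of its region.

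Cells were kept when their motif counts summed to at least 300000 and to more than the same barcode had in the other library. The share of a motif is its count over the cell's total. The score T is the mean log2 share of TEAD1, TEAD2, TEAD3 and TEAD4, P is that of POU4F1, POU4F2 and POU4F3, and N is that of NEUROD1, NEUROD2, Neurog1 and Atoh1. Within each library the TEAD-high cells are in the top 25% of T and in the top 25% of neither P nor N. This gave 189 of 890 cells (21.2%) in replicate 1 and 226 of 1051 (21.5%) in replicate 2. The labels' 2 libraries share 1828 cell barcodes, and 872 of the 890 and 925 of the 1051 kept cells have a second entry in the other library. Among the TEAD-high cells 187 and 203 have such a shallow entry, so it is not particular to them.

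TEAD1 to TEAD4 are DNA-binding factors at the end of the Hippo pathway. When Hippo kinases are inactive the co-activators YAP and TAZ enter the nucleus, bind TEAD factors and turn on genes of growth and cell division. In the developing retina YAP is found in dividing progenitors and in the pigment epithelium and is low in most neurons. POU4F factors mark ganglion cells, and the proneural factors of score N are switched on as progenitors leave division to become neurons.

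The core of the TEAD motif is GGAATG, or CATTCC on the other strand, a spelling taken from general knowledge since the tables name motifs without their letters. To show what such a match looks like, stretches upstream of Ccn1, Ankrd1 and Axl, genes known as targets of YAP and TEAD, are printed from RefSeq (GRCm38.p6), 5′ to 3′ on the gene's strand, with the core in capitals. All 3 genes lie on the minus strand, and the stretches cover chr3:145650056-145650115, chr19:36120022-36120081, chr19:36119935-36119994 and chr7:25788934-25788983. The first base of the core lies 103 bases before the start site of Ccn1, 210 and 123 before that of Ankrd1 and 233 before that of Axl.
Ccn1: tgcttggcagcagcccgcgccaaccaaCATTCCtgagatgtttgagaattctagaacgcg
Ankrd1, far match: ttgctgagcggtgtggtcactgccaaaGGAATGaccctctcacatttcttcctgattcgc
Ankrd1, near match: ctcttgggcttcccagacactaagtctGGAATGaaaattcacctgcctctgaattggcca
Axl: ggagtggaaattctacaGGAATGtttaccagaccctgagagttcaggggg
Of 32851 RefSeq promoters, 4153 (12.6%) hold the core on either strand within 250 bases before the start site. The GC box GGGCGG of SP and KLF factors is in 32.7% of the same windows, in 25.6% of those with the TEAD core and in 33.8% of those without it. These are letters in the reference. Which of these promoters are among the counted regions was not analysed here.

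The TEAD values come first as a description, since they chose the cells. TEAD1 had a median of 6.88 counts per 10000 in the TEAD-high cells of replicate 1 (lowest 6.34, highest 8.18) and of 6.73 in replicate 2 (6.28 to 7.89). In the other kept cells the medians were 6.33 (4.58 to 7.95) and 6.22 (3.58 to 7.85). The ranges of single cells overlap in both libraries. All TEAD-high cells had more TEAD1 than the median of the other cells of their library.
TEAD4 had medians of 6.47 and 6.42 per 10000 in TEAD-high cells against 5.98 and 5.94 in the others. TEAD2 had 3.33 and 3.21 against 3.07 and 2.99. TEAD3 is counted far more often, at 62.2 and 61.8 against 59.4 and 59.0. As log2 ratios of medians these are 0.12 ± 0.0032 (SD, n = 2) for TEAD1, 0.11 ± 0.0019 for TEAD4, 0.11 ± 0.0095 for TEAD2 and 0.066 ± 0.0016 for TEAD3. The TEAD1 ratio is a share 8.53% higher.

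**Figure D1:**
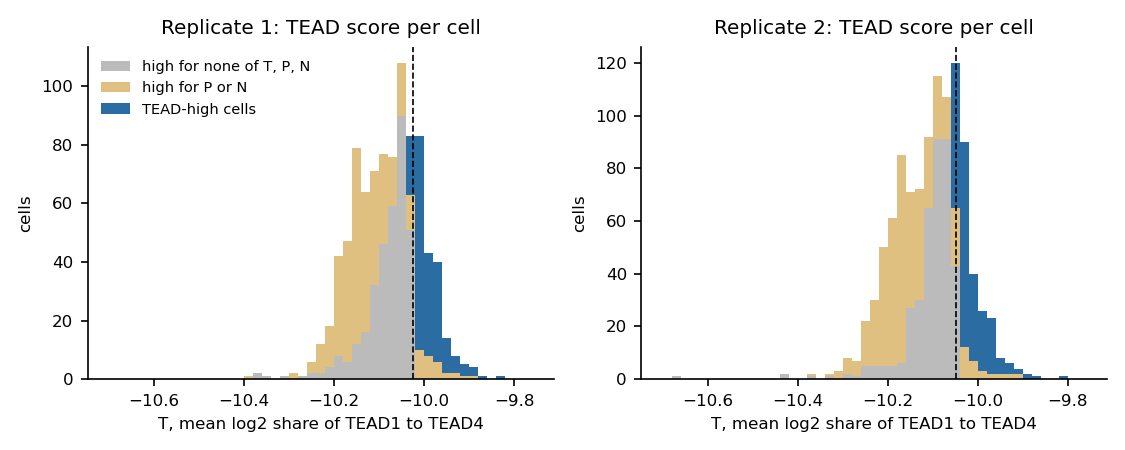
Stacked histograms of T (x axis, mean log2 share of the 4 TEAD motifs) against the number of cells (y axis) in each library, with TEAD-high cells in blue, cells high for P or N in sand and cells high for none of the scores in grey. The dashed line is the limit of the top 25%, and no gap in either histogram separates the 189 and 226 TEAD-high cells from the rest.

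No gap in T set the TEAD-high cells apart in either library, so they are a range of T and not a separate group. The limit lay at a T of −10.03 in replicate 1 and −10.05 in replicate 2, only 3.48% and 3.35% above the median cell. Just inside it the 5 lowest TEAD-high cells averaged −10.025 and −10.049, and just outside it the 5 highest cells outside all 3 top groups averaged −10.026 and −10.050. Within 0.01 of the limit lay 33 of the 189 and 58 of the 226 TEAD-high cells. Counting noise alone gives the TEAD1 share of a median cell an SD of about 0.030 and 0.031 on the log2 scale if every count were a separate cut, where T itself had an SD of 0.076 and 0.080.
The rule left out the cells at the top of T that were also at the top of P or N. Of the 223 cells at the top of T in replicate 1, 23 (10.3%) were at the top of P and 15 (6.73%) at the top of N. In replicate 2 it was 26 (9.89%) and 14 (5.32%) of 263.

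The 4 TEAD motifs did not pick out quite the same cells. Across kept cells TEAD1 and TEAD4 were closest, with a Pearson r of 0.915 and 0.895 in replicates 1 and 2, and TEAD2 stood apart, with 0.485 and 0.436 against TEAD1. Within the TEAD-high cells TEAD1 and TEAD4 kept an r of 0.835 and 0.845, whereas TEAD1 and TEAD2 had −0.056 and −0.022. These cells share depth and regions, and a sum of motifs was used to choose them. With T taken from TEAD1 alone, 153 of the 189 and 173 of the 226 cells were still chosen. From TEAD2 alone it was 132 and 137.

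For cells with a shallow entry in the other library, the TEAD shares of that entry, which the scores left out, are given as a description. The shallow entries held a median of 1.77% (for cells of replicate 1) and 0.789% (replicate 2) of the total of the deep ones. Only 2 barcodes reached 300000 counts in both libraries. Summed over the shallow entries of the TEAD-high cells of replicate 1, TEAD1 stood at 6.77 per 10000, against 6.24 for the shallow entries of the other cells. For cells of replicate 2 it was 7.04 against 6.52. The log2 differences of 0.12 and 0.11 for TEAD1, 0.13 and 0.12 for TEAD2, 0.067 and 0.077 for TEAD3 and 0.11 and 0.084 for TEAD4 stand beside mean values of 0.12, 0.11, 0.066 and 0.11 in the deep entries. Whether the 2 entries come from the same cell was not tested, so they are no independent replicate and no check of the rule. The 23 TEAD-high cells of replicate 2 with no such entry stood 0.15 above the 103 other cells of that kind for TEAD1. That value comes from the counts the rule used. In replicate 1 only 2 such TEAD-high cells remain.

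TEAD-high cells were somewhat deeper than the rest. Their median total was 3863261 motif counts in replicate 1 (others 3402418) and 3837182 in replicate 2 (others 3454126), a ratio of 1.12 ± 0.017. Of 5 depth classes of equal size, the shallowest held 19.1% and 17.1% TEAD-high cells, the next 12.4% and 17.1%, and the deepest 24.7% and 27.5%. After every cell was thinned at random to 300000 counts the shallowest class held 23.6% and 17.6% and the deepest 22.5% and 24.2%. Thinned, 123 of the 189 and 132 of the 226 cells were chosen again. The part of depth in the results below was not tested beyond these values and those given with them.

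The other motifs were then compared between TEAD-high cells and all other kept cells. No test was made, since the cells were picked on counts of the same tables and a cut counts for several motifs at once. A motif is called higher or lower here where the log2 ratio of median shares passed 0.05, a difference of 3.53%, in the same direction in both libraries. By this rule 15 motifs were higher (2.59% of 579) and 25 lower (4.32%). Of these 40, the rule had used 4 of the higher (the TEAD motifs) and 3 of the lower (NEUROD1, NEUROD2 and Neurog1). The median motif differed by 0.0015 ± 0.00057. Across the 579 motifs, which are not independent, the differences seen in the 2 libraries followed each other (Pearson r 0.930, Spearman rho 0.895). The called counts depend on the cells: among those of middle depth they were 31 and 41, and in replicate 1 taken alone 26 motifs passed as higher.

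**Figure D2:**
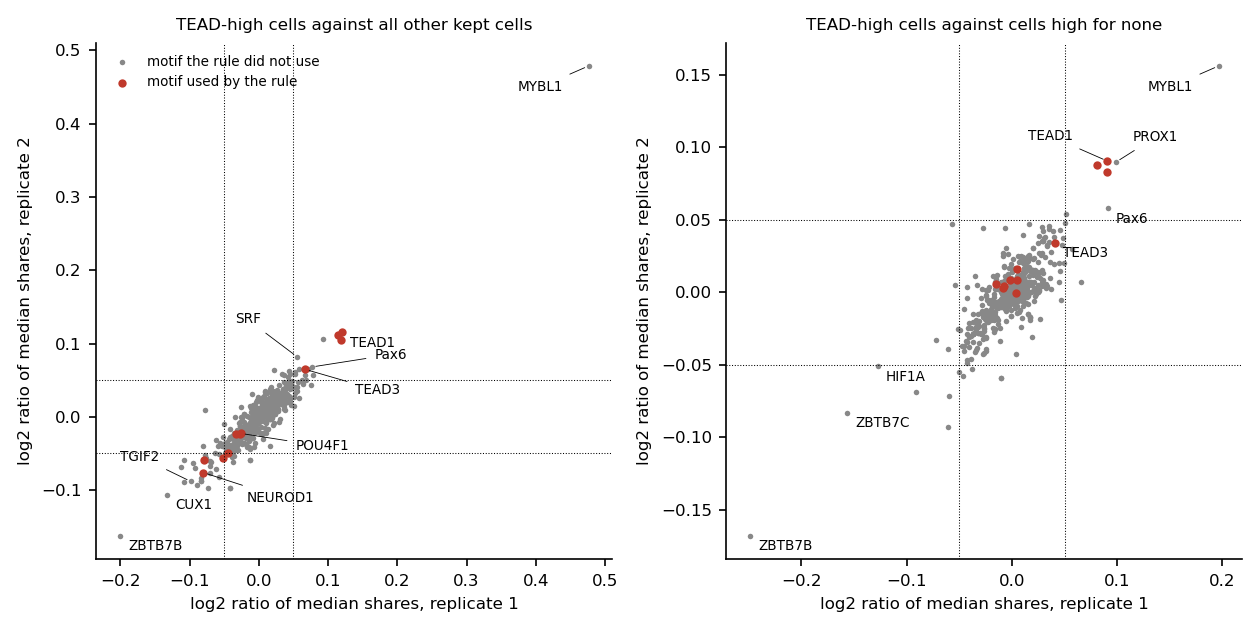
Each dot is 1 motif, with the log2 ratio of its median share in TEAD-high cells over the reference cells in replicate 1 (x axis) and replicate 2 (y axis); the left panel uses all other kept cells and the right panel cells high for none of T, P and N. Motifs of the rule are red and dotted lines mark 0.05 either way. MYBL1, with few counts, lies farthest out, TEAD1, TEAD2 and TEAD4 stand apart in both panels, and POU4F1 and NEUROD1 lie below 0 on the left and near 0 on the right.

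Among motifs outside the rule with a mean of at least 100 counts per cell, Pax6 had the highest ratio. It is 1 motif of a list that is not reported here, whose motifs did not all stand higher, so it is not read as a marker of a cell type. It had 0.367 counts per 10000 in TEAD-high cells of replicate 1 and 0.376 in replicate 2, against 0.348 and 0.359 in the others. The log2 ratio was 0.072 ± 0.0059. Single cells overlap widely: 64.0% and 64.6% of TEAD-high cells lay above the median of the others. With a mean of 133 counts per cell it is among the thinner motifs named, and in the shallow 1 of 3 depth classes it stood at 0.17 in replicate 1 but at −0.061 in replicate 2.
SRF (0.069 ± 0.019), the motif of a factor of growth and cytoskeleton genes, Nfe2l2 (0.068 ± 0.015), a stress-response bZIP motif, and CEBPA (0.068 ± 0.0041) came next. BATF::JUN (0.062), an AP-1 motif, MAF::NFE2 (0.061), HSF1 (0.059), a heat-shock factor motif, and SOX4 (0.056) were called as well. RARA(var.2) (0.059), TP73 (0.056) and IRF2 (0.055) were among the 12 highest but missed 0.05 in 1 library.
MYBL1 and E2F1, motifs of cell-cycle factors with few counts, had higher ratios than Pax6 and are named after their values were seen. Related motifs went the other way, with MYBL2 called lower (−0.099 ± 0.014, 46.7 counts per cell) and E2F4 at −0.021. MYBL1 stood 0.48 ± 0.0020 higher, but on a mean of only 7.51 counts per cell, with 9.52% and 8.41% of TEAD-high cells at 0 against 17.0% and 18.4% of the others. In the shallow, middle and deep of 3 depth classes its ratio was 0.61, 0.57 and 0.24. E2F1 (43.5 counts per cell) stood 0.099 ± 0.010 higher, and at 0.20, 0.086 and 0.049 in these depth classes. Against the cells high for none of T, P and N, described below, E2F1 stood at 0.030 ± 0.014 and was not called, with −0.0044 and −0.0012 in the middle and deep classes.

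The motifs lower in TEAD-high cells were of several kinds. ZBTB7B, a zinc-finger factor motif, had medians of 1.42 and 1.36 per 10000 against 1.63 and 1.52 in the others, a log2 ratio of −0.18 ± 0.027. Among cells of middle depth the ratio was −0.080. ZBTB7C (−0.091 ± 0.032) and HIF1A (−0.083 ± 0.035), the hypoxia factor, stood with it.
CUX1 (−0.12 ± 0.018) and CUX2 (−0.078 ± 0.023) are cut-homeodomain motifs, and TGIF2 (−0.093 ± 0.0070) and PKNOX2 (−0.074 ± 0.0038) are motifs of TALE homeodomain factors. E-box motifs outside the rule were lower too, with MSC and MYF6, which have identical counts (−0.086), Tcf21 (−0.081) and TAL1::TCF3 (−0.070). ATF4 (−0.086) and IRF8 (−0.084 ± 0.00022), an interferon-response motif of microglia, completed the 12 lowest.

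Since all other kept cells include those high for P or N, a second reference was the 333 and 381 cells in the top 25% of none of T, P and N. Against these, 7 motifs were higher (1.21%) and 6 lower (1.04%). The E-box, CUX and TALE motifs were not called against these cells. Of the motifs called higher above, CEBPA (0.033), MAF::NFE2 (0.033), BATF::JUN (0.027), HSF1 (0.022), SRF (0.019) and SOX4 (0.014) were not called here either. SRF was of the other sign in replicate 1 alone. TGIF2 stood at 0.023, CUX1 at −0.023 ± 0.027, MSC and MYF6 at −0.0086 and NEUROD1 at −0.0017 ± 0.0081. POU4F1 stood at 0.010 ± 0.0081. TEAD1 stood at 0.090, TEAD2 at 0.087 and TEAD4 at 0.084, and TEAD3 at 0.037 missed the fold.
Pax6 stood at 0.074 ± 0.023, and NFE2, a bZIP motif of the AP-1-like kind, reached 0.053 ± 0.0014. MAFK (0.049), JUN (0.044) and Nfe2l2 (0.043), bZIP motifs too, and Rarg(var.2) (0.043) followed below the fold. PROX1, a motif of horizontal cells and of progenitors leaving division, stood at 0.094 ± 0.0065 with only 68.4 counts per cell and is named after its value was seen. MYBL1 was the other motif called higher, at 0.18. Among cells of middle depth PROX1 stood at −0.0012 in replicate 1 and 0.10 in replicate 2, and MYBL1 at 0.013 and 0.14.
Lower were ZBTB7B (−0.21 ± 0.057), ZBTB7C (−0.12 ± 0.052), HIF1A (−0.089 ± 0.054) and IRF4 (−0.066 ± 0.0086), and, among thin motifs named after their values were seen, ZBED1 (−0.080) and GRHL1 (−0.077). GLIS2 (−0.053) and IRF8 (−0.052) were the next named. In the deepest of 3 depth classes ZBTB7B stood at −0.060 in replicate 1 and 0.050 in replicate 2, so the libraries went opposite ways there. Either library alone gave 11 lower motifs in place of 6.

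The label of progenitor-like cells was checked against progenitor motifs that the rule did not use. Of 7 SOXB and SOXE motifs, those of SOX factors of stem and glial cells, 6 were higher in both libraries and 0 passed the fold, with a median of 0.012 ± 0.00083. SOX8 had the largest ratio (0.047 ± 0.016) and SOX21 the smallest (−0.0018). All 6 homeodomain motifs of retinal progenitors (5 with counts of their own) were higher in both libraries and 0 passed, with a median of 0.019 ± 0.0028 and RAX lowest at 0.0073.
Of 4 NFI motifs 2 were higher (median 0.0061), and of 7 motifs of the Notch pathway, which holds progenitors back from becoming neurons, 4 were higher and 2 lower (median 0.0092 ± 0.0055). Against the cells high for none the medians were 0.0071 for SOXB and SOXE, 0.0061 for homeodomain, 0.0067 for NFI and −0.0050 for Notch motifs.
Over all 579 motifs 265 were higher and 247 lower in both libraries. Against the cells high for none 246 were higher and 190 lower, and of 7 Notch motifs 1 was higher and 4 were lower. None of the motifs of these 4 lists passed the fold against all other kept cells, where 2.59% of all motifs did. With lists this short, few calls fall at that share. Even the SOX-high cells described below, chosen on the SOXB and SOXE score, stood only 0.042 above all kept cells for that list. So missing the fold does not decide on the label. The data do not set these cells apart as progenitors, so they are called TEAD-high cells here.

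**Figure D3:**
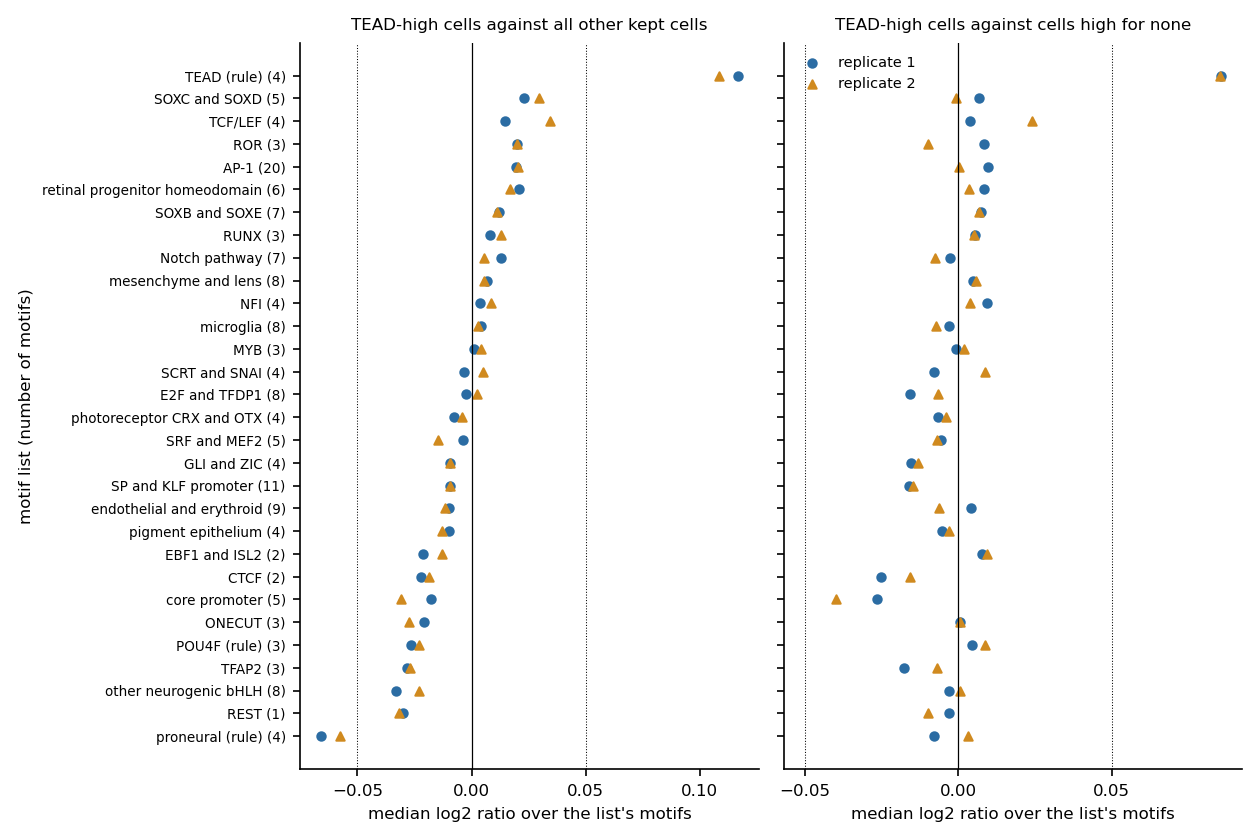
Median log2 ratio over the motifs of each list (x axis) for TEAD-high cells against all other kept cells (left) and against cells high for none of T, P and N (right), with circles for replicate 1 and triangles for replicate 2. Apart from the lists used by the rule, all medians lie within 0.05 of 0 (dotted lines).

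Motifs of neurons tended lower against all other kept cells, which hold the cells that the rule left out for high P or N. The part of the rule in this was not tested. Of 8 neurogenic bHLH motifs outside N, with 6 different sets of counts, 6 were lower in both libraries and 2 passed. Ascl2 was among these 2 at −0.069, and the median of the 8 was −0.028 ± 0.0070. BHLHE23 was the highest at 0.027. Over all 579 motifs 247 were lower in both libraries and 4.32% passed as lower. EBF1 (−0.029) and ISL2 (−0.0052), ganglion cell motifs outside P, were both lower. All 3 ONECUT motifs, of horizontal cells and early neurons, were lower (median −0.024), as were all 3 TFAP2 motifs of amacrine and horizontal cells (−0.028 ± 0.00093). All 4 CRX and OTX type motifs of photoreceptor precursors were lower (median −0.0058), with Dmbx1 at −0.065 the only one past the fold. REST, the motif of a repressor of neuronal genes in non-neuronal cells, stood at −0.031 ± 0.0014. Against the cells high for none the medians were −0.0011 for neurogenic bHLH, 0.00059 for ONECUT and −0.012 for TFAP2 motifs. EBF1 and ISL2 were both higher there (median 0.0086), and of the CRX and OTX type motifs 2 were higher and 2 lower, with Crx at 0.035 ± 0.0048.

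Most promoter and insulator motifs were lower against both of these references, though of these only core promoter motifs were also lower against the SOX-high cells described below. Of 11 SP and KLF motifs, GC-rich patterns of promoters, 10 were lower in both libraries (median −0.0095 ± 5.8e-05), and against cells high for none also 10 (−0.015). Of 5 core promoter motifs 4 were lower (median −0.024 ± 0.0092, ZBTB33 lowest at −0.042), and against cells high for none 4 (−0.033). CTCF and CTCFL, motifs of the insulator factor, had medians of −0.020 against both. None of these 18 motifs passed the fold against either reference.
The lists of growth and signalling motifs differed. The 8 E2F and TFDP1 motifs had a median of 0.00018, with 4 higher and 4 lower, and the 3 MYB motifs, of which MYBL1 was called higher and MYBL2 lower, had one of 0.0027. The 4 TCF/LEF motifs of Wnt signalling had a median of 0.025 ± 0.014, led by TCF7L2 at 0.047. Of 20 AP-1 motifs 16 were higher in both libraries and BATF::JUN alone passed (median 0.020 ± 0.00067). Against cells high for none 8 were higher and 5 lower (median 0.0049). Of the lists not yet given, SOXC and SOXD motifs had a median of 0.026 ± 0.0045 (5 of 5 higher, SOX4 called), ROR motifs 0.020 and RUNX motifs 0.010. SCRT and SNAI motifs had 0.0010, SRF and MEF2 motifs −0.0092 and GLI and ZIC motifs −0.0094. Against cells high for none SOXC and SOXD motifs had 0.0030 (2 of 5 higher), ROR motifs −0.00057 and RUNX motifs 0.0054. There SCRT and SNAI motifs had 0.00052, SRF and MEF2 motifs −0.0061 and GLI and ZIC motifs −0.014.

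Motifs of other cell types that dissociated retina could hold were read as well. The 4 pigment epithelium motifs (MITF and TFE family) were all lower in both libraries (median −0.011 ± 0.0019). Endothelial and erythroid motifs had a median of −0.011 (3 of 9 higher), microglia motifs 0.0036 (5 of 8 higher, CEBPA past the fold upward and IRF8 downward) and mesenchyme and lens motifs 0.0063 (5 of 8 higher). None of the motifs of these 4 lists had a median of 0 in TEAD-high cells, and the part of such cells was not tested.

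A count of cells shows the same lists in another way. For each list the mean log2 share of its motifs (with 0.5 added to each count) was ranked within a library, and the share of TEAD-high cells in the top 25% was taken. For SOXB and SOXE motifs 34.0% ± 0.15 (SD, n = 2) of TEAD-high cells were there, against 22.6% of all others and 29.2% ± 1.4 of cells high for none. For NFI motifs, which mark late progenitors, it was 30.6% ± 0.11 against 23.5% and 19.0%. This is not particular to TEAD-high cells. Relative to all kept cells the NFI median was 0.0054 in them and 0.0088 in the proneural-high cells described below. Homeodomain motifs gave 29.8% ± 2.0 against 23.8% and 26.1%.
Notch motifs went the other way against cells high for none, with 22.8% against 31.8%. For CTCF motifs only 11.1% ± 0.035 of TEAD-high cells were at the top, against 28.8% of all others and 27.7% ± 1.6 of cells high for none. SP and KLF motifs (12.8% against 28.4% and 28.1%) and core promoter motifs (13.9% against 28.1% and 28.4%) showed this too.
For TFAP2 motifs the share was 10.1%, against 29.1% and 20.1%, and for REST 8.53% ± 2.3, against 29.5% and 15.9%. ONECUT (7.02%) and the neurogenic bHLH motifs (9.01%) were as rare as in cells high for none (8.25% and 9.66%). With each cell centred on its mean log2 count the CTCF share was 12.3% and the SOXB and SOXE share 33.3%. These shares come from cells chosen on the same counts and carry no test.

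**Figure D4:**
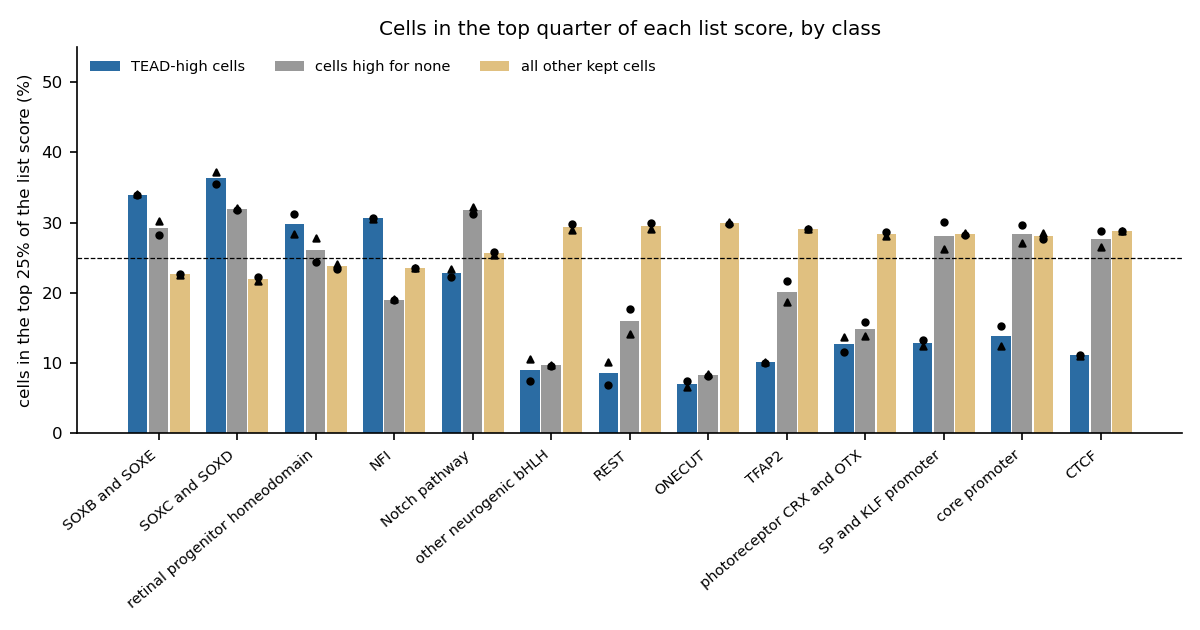
Bars give the mean over both libraries of the percentage of cells in the top 25% of each list's score (y axis) for TEAD-high cells (blue), cells high for none of T, P and N (grey) and all other kept cells (sand), with circles for replicate 1, triangles for replicate 2 and a dashed line at 25%. TEAD-high cells stand above cells high for none for the NFI list and below them for Notch, TFAP2, promoter and CTCF lists.

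TEAD-high cells were also divided by their SOXB and SOXE score, a cut that itself sets the SOX motifs apart. In the top 25% for SOXB and SOXE were 64 of the 189 and 77 of the 226, and these were deeper than the other TEAD-high cells (median totals of 4236020 against 3682689 in replicate 1 and 4215424 against 3703074 in replicate 2). Across all kept cells the motifs that followed T most closely, after the TEAD motifs themselves, were the MSX motifs, with identical counts (Pearson r 0.575 and 0.592), EN1 (0.539 and 0.568) and SOX9 (0.534 and 0.549). Among the lowest was Myod1 (−0.552 and −0.502). These were singled out after their values were seen. The points share depth and regions, so the r values only describe.

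The class most like these cells by its label is the SOX-high cells, taken as the cells in the top 25% for SOXB and SOXE and in that of none of T, P and N (94 and 115 cells). Their TEAD motifs stood only 0.0099 ± 0.0050 above all kept cells, where TEAD-high cells stood at 0.087 ± 0.0028. In turn SOXB and SOXE motifs stood at 0.042 ± 0.0047 in SOX-high and 0.0085 ± 0.00062 in TEAD-high cells. For homeodomain motifs the values were 0.030 ± 0.0016 and 0.012 ± 0.0019, so the homeodomain motifs of progenitors were higher in the SOX-high cells. SOX-high cells were also deeper, with median totals of 4621181 and 4372361. In TEAD-high cells all 7 SOXB and SOXE and all 6 homeodomain motifs were lower than in SOX-high cells in both libraries. Of 7 Notch motifs 5 were higher and 0 lower (median 0.0098), and of 4 NFI motifs 2 were higher and 2 lower (median 0.0017). Over all motifs 198 were higher and 275 lower in both libraries against SOX-high cells, so lower values were the more common ones there.
Between these classes 8 motifs were higher in TEAD-high cells (1.38%) and 8 lower (1.38%). ZBTB7B was among the higher (0.19), against its lower value beside the cells high for none. Several lists that stood low in TEAD-high cells stood as low or lower in SOX-high cells. Relative to all kept cells CTCF motifs were at −0.016 in TEAD-high and −0.024 in SOX-high cells, SP and KLF motifs at −0.0073 and −0.0092, TFAP2 motifs at −0.020 and −0.038 and REST at −0.023 and −0.059. Compared directly, both CTCF motifs and all 3 TFAP2 motifs were higher in TEAD-high than in SOX-high cells in both libraries, and of SP and KLF motifs 4 were higher and 4 lower. Core promoter motifs were lower in TEAD-high cells here too, 4 of 5 with a median of −0.022. These counts stand beside 198 higher and 275 lower over all motifs in the same comparison.
TEAD motifs were lowest in the neuronal classes, at −0.049 ± 0.0035 in POU4F-high cells (top of P, not of N) and −0.064 ± 0.0030 in proneural-high cells (top of N, not of P). TEAD-high cells in turn had proneural motifs at −0.043 ± 0.0017 and POU4F motifs at −0.016 ± 0.0030. All of these classes are cut from the scores they are compared on, so no test was made.

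**Figure D5:**
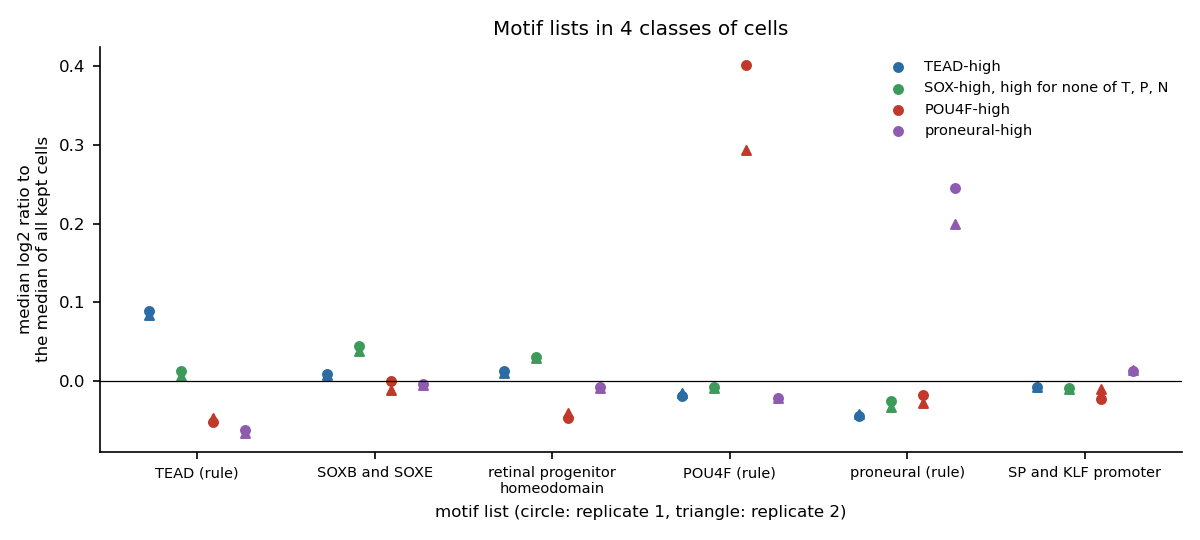
Median log2 ratio of each list's motifs in a class of cells to the median of all kept cells (y axis) for TEAD-high, SOX-high, POU4F-high and proneural-high cells, with circles for replicate 1 and triangles for replicate 2. The TEAD list is at 0.087 in TEAD-high cells, a smaller step than that of POU4F motifs in POU4F-high cells (0.35) or of proneural motifs in proneural-high cells (0.22).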

How the data were processed

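The deposited tables hold raw counts per motif and cell barcode. Per the file headers they are whole-number matrices written by software version 1.1.0, and per the submitters' processing notes Cell Ranger and the build mm10 were used. How peaks were called and motifs searched is not stated in the labels or headers. The libraries held 3373212147 and 3932721221 motif counts over 2422 and 3033 barcodes.

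Cells, scores and classes followed the rule given in the text (Python 3.11.15, numpy 2.4.6, pandas 2.3.3). Shares were compared as log2 ratios of medians over cells within a library, then as mean and SD over 2 libraries. Doublets were not called. Dropping the deepest 5% of cells was an alternative. No model was fitted and no p-value computed. The cells, the 31 motif lists and the tests were chosen with earlier results of these data known. Named motifs were the 11 of the rule, the 12 highest and 12 lowest against all other kept cells and the 6 highest and 6 lowest against cells high for none (mean of at least 100 counts per cell, same sign in both libraries, identical counts taken once), and the ends of each list. Of the motifs, 59 share their counts with at least 1 other. One list and some motifs are not reported here.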

Additional observations from a re-analysis of the deposited data

How the results depend on the processing

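Counts of motifs past the fold were recomputed under 13 alternatives and values of lists and named motifs under 12. Against all other kept cells, 15 higher and 25 lower motifs became 31 and 41 in cells of middle depth and 4 and 2 at a fold of 0.1. Against cells high for none, 7 higher and 6 lower became 1 and 1 at a fold of 0.1, the higher count was 3 with T from TEAD1 alone, and the lower count was 10 with the top 20% of T. With 1 library left out, so that the rule needs the other alone, the counts were 21 to 26 higher and 32 to 34 lower against all others, and 7 to 10 higher and 11 lower against cells high for none. Of 46 list medians and named motifs past the fold, 0 turned sign, but these include lists and motifs that chose the cells. ATF4 against all other kept cells was at 0 when thinned. Of all 242 list medians and named motifs, counted against both references, 171 kept their sign under every alternative that gave a value. Centring each cell left the TEAD list at 0.11. List medians nearer 0 did turn under at least 1 alternative: against all other kept cells those of E2F, MYB, SCRT, SRF and MEF2 and microglia motifs and of the list not reported here, with ROR motifs at 0 when thinned, and against cells high for none those of POU4F, proneural, SOXC, MYB, neurogenic bHLH, EBF1 and ISL2, SCRT, CRX, ROR, ONECUT, AP-1 and endothelial motifs. The causes were not tested. Leaving out all cells whose barcode is in both libraries was not run for these counts, since only 2 TEAD-high cells of replicate 1 remain. Each difference was taken within a library before averaging over libraries, and no paired test was made. Depth limits thin motifs such as MYBL1, whose median was 0 in thinned cells.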
